A study of Mus musculus with 2 samples.

Results

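The genes that load peptides onto major histocompatibility complex (MHC) molecules were compared between papain-treated and PBS-treated mouse nasal mucosa. They were chosen by name. They are all H2- symbols, H2 being the mouse MHC, other than the H2-M1, H2-M9, H2-M10 and H2-M11 genes of vomeronasal neurons, together with a fixed list of genes for the light chain, regulators, transporters, proteasome subunits and chaperones. The choice found 39 of 22180 named genes, of which 13 are class I H2 genes, 13 class I assembly genes, 11 class II genes and 2 H2- symbols counted apart. Each gene was represented by its probe set with the highest mean signal.

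The papain group was nasal mucosa of C57BL/6 mice, 4 to 6 weeks old, taken on day 3 after instillation of papain, a cysteine protease of papaya that serves as a model allergen. The PBS group was the same tissue from the same strain, age range and day after phosphate-buffered saline, the vehicle. Per the study's design text, 4 samples were combined into a specimen, and whether that number was per group is not given. RNA of each group went onto 1 Mouse Gene 2.0 ST array. The ratios below are therefore without replicates and without a test, and their precision is limited by having 1 array per group.

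Class I molecules show peptides made in the cytosol to CD8 T cells. Their heavy chains, encoded by H2 genes, fold with beta-2-microglobulin (B2m), and peptides cut by the proteasome enter the endoplasmic reticulum through the transporter Tap1-Tap2. Class II molecules show peptides from endosomes to CD4 T cells, are made mainly by dendritic cells, macrophages and B cells, and are switched on by the coactivator Ciita, as class I genes are by its relative Nlrc5. Both classes respond to interferon gamma, and in bulk tissue more presenting cells and more transcript per cell cannot be told apart.

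Promoters of 5 members are shown. Class II genes are represented by H2-Aa and H2-Eb1, with log2 papain over PBS ratios of 0.33 and 0.15. The class I light chain is represented by B2m, 0.17. Of the class I H2 genes, H2-K1 has the median ratio, 0.03, and H2-Q10 a high ratio, 0.83. Each stretch is the 150 bases before a RefSeq start site in build GRCm38.p6, that of the gene's first promoter entry, on the gene's strand. For H2-K1 this site lies inside the RefSeq gene, which extends to base 34000619. Capitals mark matches, on either strand, to the motifs searched: the Y box CCAAT, the X2 core TGACG, the interferon-response core GAAANNGAA, the interferon gamma-activated site TTCNNNGAA and the NF-kB motif GGGNNTTCC. Where matches of the X2 core overlap on opposite strands, as in H2-Aa, the capitals run on.
H2-Aa, chr17:34287824-34287973, minus strand: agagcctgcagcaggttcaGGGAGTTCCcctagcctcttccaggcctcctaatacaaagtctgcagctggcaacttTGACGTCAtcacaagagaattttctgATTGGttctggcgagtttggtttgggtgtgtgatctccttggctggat
H2-Eb1, chr17:34305717-34305866, plus strand: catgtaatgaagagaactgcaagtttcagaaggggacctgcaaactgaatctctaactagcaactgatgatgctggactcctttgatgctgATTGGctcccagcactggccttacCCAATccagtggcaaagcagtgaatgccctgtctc
B2m, chr2:122147537-122147686, plus strand: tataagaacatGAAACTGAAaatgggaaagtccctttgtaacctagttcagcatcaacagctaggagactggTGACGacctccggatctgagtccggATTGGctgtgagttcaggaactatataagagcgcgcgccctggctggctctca
H2-K1, chr17:34000348-34000497, minus strand: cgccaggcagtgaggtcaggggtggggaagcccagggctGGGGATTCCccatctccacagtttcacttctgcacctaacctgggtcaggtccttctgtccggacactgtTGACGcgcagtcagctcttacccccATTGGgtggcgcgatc
H2-Q10, chr17:35469939-35470088, plus strand: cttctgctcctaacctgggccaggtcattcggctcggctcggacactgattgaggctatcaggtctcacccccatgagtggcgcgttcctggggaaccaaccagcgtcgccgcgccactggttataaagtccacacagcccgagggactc

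In these windows H2-Aa, which encodes the alpha chain of the class II molecule I-A, held a Y box starting 48 bases upstream and overlapping X2 cores at 74 and 71 bases upstream, the arrangement known from class II promoters. H2-Eb1 held Y boxes at 59 and 35 bases upstream and no X2 core in these letters. H2-K1, a classical class I heavy chain gene, held an NF-kB motif at 111, an X2 core at 41 and a Y box at 16 bases upstream. H2-Q10, which encodes a secreted class I molecule, held none of the 5 motifs.

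The nasal mucosa label was checked against marker lists. All 7 measured nasal gland and olfactory mucosa genes and all 7 measured epithelial genes reached a log2 signal of 6.29, the median over named genes, in at least 1 array. This median is used below as the floor for a clear signal, and 11691 named genes reached it. A lower reference, called background level here, was set by 27 genes of other tissues, whose median was 5.22 after papain against 5.06 after PBS. The upper reference was their 95 percentile, 6.95. Of the 27 genes, 3 reached the floor, and the highest signals were 10.48 after papain and 10.91 after PBS. The upper reference thus rests on genes of that list with a clear signal here. All values are log2 signals as deposited, and ratios are the papain value minus the PBS value. Of the 39 members, 23 reached the floor, 32 exceeded background level in both arrays and 14 exceeded 6.95 in both. Tap2 was the 1 member that reached the floor in only 1 array, the PBS array. The SD of the log2 ratio of a probe set, taken from 1082 genes with 2 or more probe sets, was 0.32 and describes probe set error only.

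None of the 39 members differed by 2-fold or more between the arrays. The share over all named genes was 2.56%, with 1.83% towards papain and 0.73% towards PBS. That share is too small for a count of 0 in 39 to set the members apart. At 1.5-fold, H2-M5 and H2-Q10 were higher and Tap2 was lower, which is 7.69% of the members. Of all named genes, 9.72% passed 1.5-fold in either direction, 5.38% higher and 4.34% lower. Of the 23 members that reached the floor, 2 passed 1.5-fold, or 8.70%. Of the 11691 named genes that did, 397 were higher and 507 lower by 1.5-fold. Of the members, 28 had a ratio smaller in size than the probe set SD. This is 71.8% of the members, near the 68.5% of all named genes. The median ratio was 0.02 over the members and -0.03 over all named genes, and the members' median turned negative, to as low as -0.05, when probe sets were averaged or the second brightest was used.

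**Figure D1:**
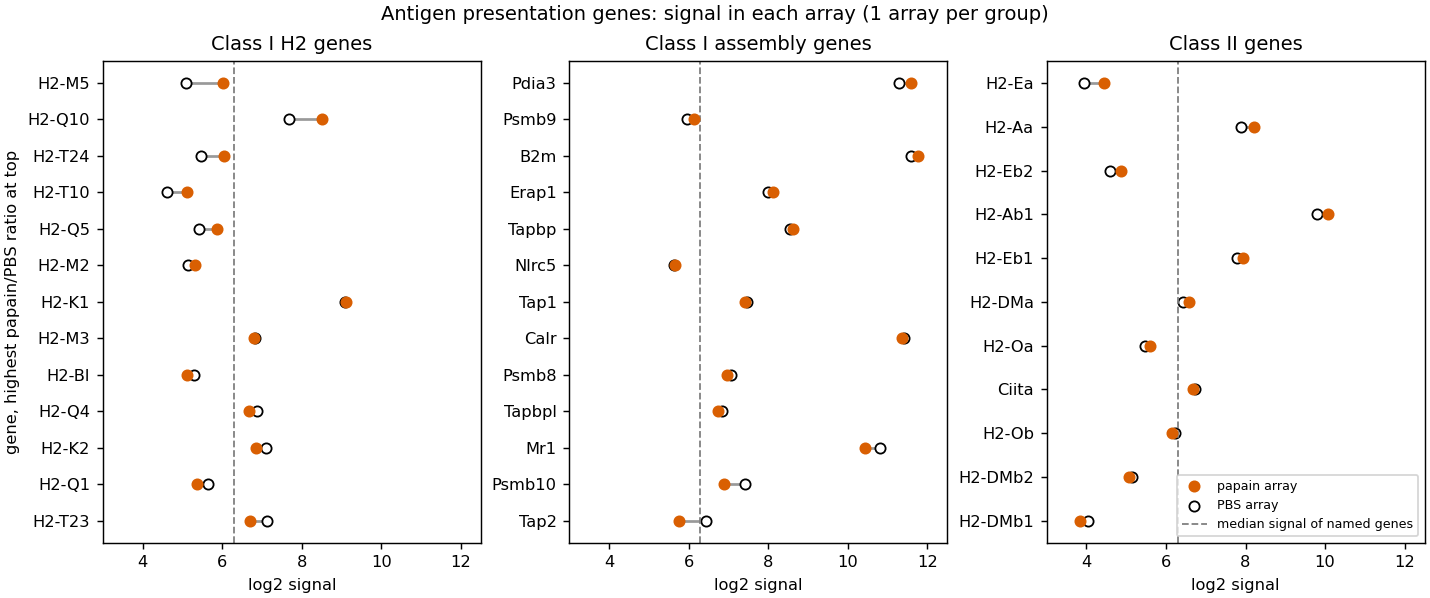
Log2 signal (x axis) of each class I, class I assembly and class II gene (y axis, ordered by ratio) in the papain array (filled) and the PBS array (open), 1 array per group. The dashed line is the median signal of named genes, 6.29. The longest connecting lines belong to H2-M5 and H2-Q10, higher in the papain array, and to Tap2, lower.

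Class II genes leaned towards the papain array by small amounts. Of 11 measured genes, 7 had a ratio above 0, as did 45.6% of all named genes, and the median ratio was 0.15. It stayed between 0.15 and 0.20 under 5 other processing settings. These were quantile normalization, a median ratio of 0, loess, averaged probe sets and the second brightest probe set. Each class II gene had 1 probe set, so averaging or taking the second brightest could not change its ratio. A median ratio of 0 shifts every ratio by the same amount. Among the 5 class II genes that reached the floor, 4 had a ratio above 0, against 35.9% of the named genes that did. No class II gene reached 1.5-fold in either direction.

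The chains of I-A, the class II molecule that C57BL/6 mice display, went together. H2-Aa, its alpha chain, read 8.22 after papain against 7.89 after PBS, a ratio of 0.33. H2-Ab1, its beta chain, read 10.06 after papain against 9.79 after PBS, a ratio of 0.28. These ratios correspond to 1.25-fold and 1.21-fold. That of H2-Aa was about the size of the probe set SD, and that of H2-Ab1 was smaller.

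H2-Eb1, the beta chain of the second class II molecule I-E, read 7.94 after papain against 7.79 after PBS, a ratio of 0.15. H2-Ea, the I-E alpha chain gene, is defective in C57BL/6 mice and RefSeq lists it as a transcribed pseudogene. It read 4.44 after papain against 3.93 after PBS, under background level in both, so its ratio of 0.50, the highest of the class II genes, describes dim array signals and not transcript. H2-Eb2, a beta chain gene of the same region, was also under background level, at 4.87 after papain against 4.58 after PBS.

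The genes for peptide editing in endosomes showed no common direction. H2-DMa, the alpha chain of the editor that exchanges the invariant chain fragment for peptide, read 6.59 after papain against 6.44 after PBS. Its beta chains had ratios of -0.07 for H2-DMb2 and -0.19 for H2-DMb1, and H2-DMb1 was under background level in both arrays. H2-Oa and H2-Ob, which form the DO dimer that restrains DM, lay under the floor with ratios of 0.13 and -0.07. Ciita, the coactivator of the class, read 6.68 after papain against 6.73 after PBS, a ratio of -0.05 that became 0.05 after loess.

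Class I heavy chain genes spread in both directions more widely than class II genes. Of 13 genes, 7 had a ratio above 0 and 6 below, from 0.92 for H2-M5 to -0.44 for H2-T23, with a median of 0.03. The median was -0.11 among the 6 genes that reached the floor, of which 2 had a ratio above 0. These values were near those of all named genes that reached it, a median of -0.10 with 35.9% above 0. H2-K1 read 9.11 after papain against 9.08 after PBS, a ratio of 0.03 that did not pass 0.11 in any of the 5 settings. It is the only classical class I gene with a probe set of its own among the members.

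Of the nonclassical genes, H2-Q10 had the largest ratio among class I genes above the floor. It encodes a soluble class I molecule known mainly from liver, and read 8.50 after papain against 7.67 after PBS, a ratio of 0.83 or 1.77-fold. Of the named genes that reached the floor, 2.04% had a higher ratio. Its second probe set read 5.50 after papain against 5.19 after PBS, so its ratio of 0.31 went the same way and fell short of 1.5-fold.

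H2-M5 read 6.02 after papain against 5.10 after PBS, a ratio of 0.92 with the PBS value only just over background level. H2-T24 also lay under the floor, at 6.04 after papain against 5.47 after PBS, a ratio of 0.57. H2-T10, a transcribed pseudogene with a ratio of 0.50, was under background level in both arrays. H2-Q5, listed as a transcribed pseudogene, read 5.88 after papain against 5.42 after PBS on its brighter probe set. Its other probe set went the opposite way, with ratios of 0.45 and -0.44, so no direction is given for it.

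The vomeronasal H2-M genes that the choice left out lay beside these values in the same arrays. Of 9 such genes, 7 were past 2-fold towards papain, and their median ratio was 1.78. H2-M1 read 7.19 after papain against 3.31 after PBS. The vomeronasal neuron marker list holds 2 of these genes, H2-M1 and H2-M10.5. Its other 5 markers all read higher after papain, 1 of them past 2-fold, with a summed signal of 11.62 after papain against 11.23 after PBS on the log2 scale. Their ratios were 3.35 for Calr4, 0.83 for Trpc2 and 0.56 for Gnao1. Those of Meis2, 0.29, and Gnai2, 0.10, were smaller than the probe set SD, and Gnai2 is the brightest gene in the sum. The part of vomeronasal neurons in the ratios of H2-M5 and H2-Q10, genes of the same MHC region on chromosome 17, was not tested. H2-M3, which presents peptides with a formylated start, read 6.81 after papain against 6.82 after PBS, and H2-M2 had 0.17 from signals under the floor.

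**Figure D2:**
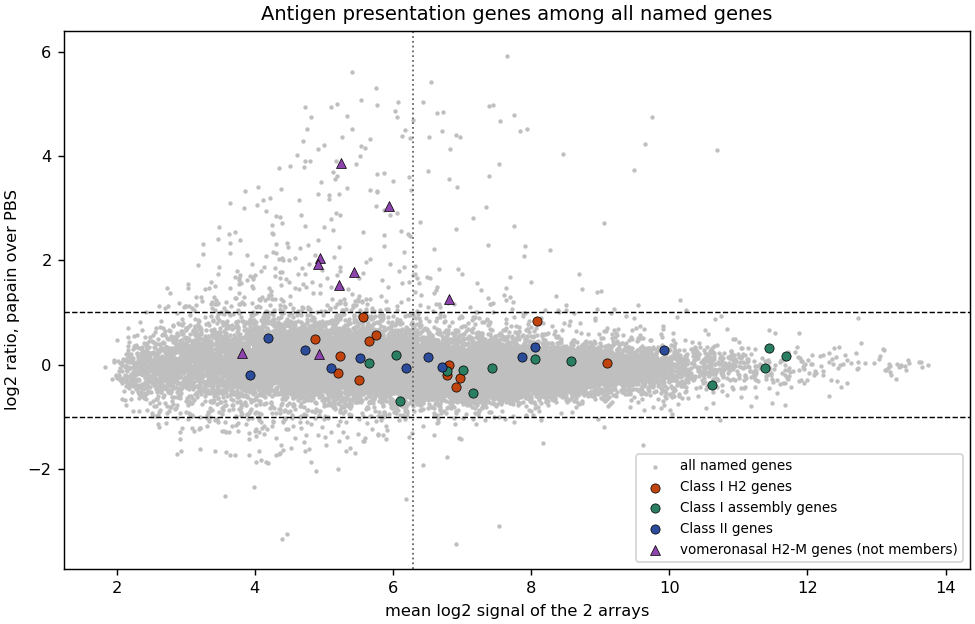
Log2 ratio of papain over PBS (y axis) against the mean log2 signal of the 2 arrays (x axis) for all named genes (grey), the members (coloured circles) and the vomeronasal H2-M genes outside the choice (triangles). Dashed lines mark 2-fold and the dotted line the floor of 6.29. All members lie between the dashed lines, and 7 of 9 vomeronasal H2-M genes lie above them.

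The lowest class I ratio belonged to H2-T23, which encodes Qa-1, the ligand of the inhibitory NKG2A receptor of natural killer cells. It read 6.69 after papain against 7.13 after PBS, a ratio of -0.44 that lay between -0.44 and -0.32 over the settings. H2-Q4 read 6.68 after papain against 6.88 after PBS, with ratios of -0.20 and -0.17 on its probe sets. The transcribed pseudogene H2-K2 read 6.84 after papain against 7.09 after PBS, a ratio of -0.25. H2-Bl, of the same biotype, had -0.15, and H2-Q1 had -0.29 from signals under the floor. H2 heavy chains are close paralogs, so a probe set can pick up transcript of a neighbour and the values of single H2 genes are uncertain. Probe sets carrying several class I symbols, 6 in all, were therefore given no gene. Their ratios ran from -0.10 to 0.21, and 5 of the 6 were above 0.

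The genes that supply and load class I peptides held the largest member ratio towards the PBS array. Of 13 assembly genes, 6 had a ratio above 0 and 7 below, with a median of -0.06 that became 0.01 after loess. Among the 11 that reached the floor, 4 had a ratio above 0, a share close to the 35.9% of named genes there.

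B2m, the light chain of class I molecules, read 11.77 after papain against 11.60 after PBS, a ratio of 0.17. Erap1, the endoplasmic reticulum aminopeptidase that trims peptides, read 8.11 after papain against 7.998 after PBS. Pdia3, the oxidoreductase ERp57 of the loading complex, had the highest ratio of the assembly genes, 0.31, at 11.60 after papain against 11.28 after PBS. Calr, the lectin chaperone calreticulin, read 11.36 after papain against 11.42 after PBS.

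The transporter subunits went apart. Tap2 read 5.75 after papain against 6.44 after PBS, a ratio of -0.70 that lay between -0.72 and -0.66 over the 5 settings, and the PBS over papain ratio was 1.62. Tap1 read 7.41 after papain against 7.47 after PBS, a ratio of -0.06. The ratios of Tap1 and Tap2 thus differed by 0.64, against an SD of 0.46 for the difference of 2 probe set ratios. The genes lie 7254 bases apart on chromosome 17, and each had 1 probe set. Tapbp, the tapasin that bridges the transporter and the heavy chain, read 8.62 after papain against 8.54 after PBS. Its ratio was 0.08 on this probe set and -0.28 on the other. Tapbpl, its relative, read 6.73 after papain against 6.84 after PBS.

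The inducible proteasome subunits that replace constitutive ones under interferon gamma also went apart. Psmb10 read 6.88 after papain against 7.43 after PBS, a ratio of -0.55. Psmb8 read 6.95 after papain against 7.07 after PBS, and its ratio of -0.11 became 0.01 after loess. Psmb9 lay under the floor with 6.14 after papain against 5.96 after PBS, a ratio of 0.18. Psmb9 and Tap1 are divergent neighbours whose start sites lie 226 bases apart, so their promoter entries share 275 bases, and their ratios of 0.18 and -0.06 were both smaller than the probe set SD.

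Nlrc5, the class I coactivator, read 5.67 after papain against 5.64 after PBS, under the floor. Mr1 presents vitamin B metabolites to mucosal-associated invariant T cells. It read 10.42 after papain against 10.81 after PBS, a ratio of -0.39 that lay between -0.40 and -0.34 over the settings. Both H2- symbols counted apart are no chain of a functional MHC molecule. H2-Ke6, which RefSeq also lists as the dehydrogenase gene Hsd17b8, read 7.60 after papain against 7.87 after PBS, and the pseudogene H2-Pb, under background level in both arrays, had a ratio of -0.07.

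**Figure D3:**
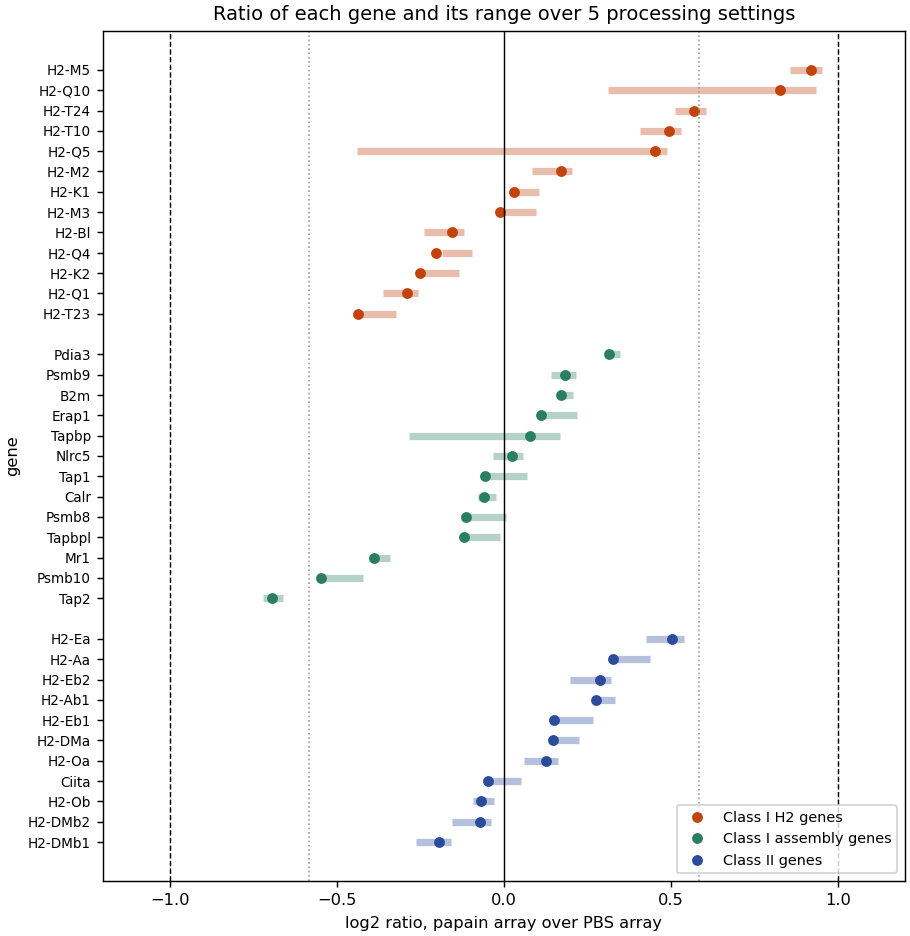
Log2 ratio of papain over PBS (x axis) of each gene (y axis) as deposited (points), with its lowest to highest value over 5 other processing settings (bars). Dotted lines mark 1.5-fold and dashed lines 2-fold. H2-M5 and Tap2, with 1 probe set each, stay past 1.5-fold in every setting shown. The bars of H2-Q10, H2-Q5 and Tapbp are long because their probe sets differ.

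Promoter entries were found for 26 of the 39 members, and the first entry of each gene was counted. The Y box was present in 7 of 8 class II, 5 of 7 class I and 6 of 10 assembly promoters, and in 37.9% of all 27025 gene promoters of the same 300 bases. The X2 core was present in 1 of 8 class II, 4 of 7 class I and 4 of 10 assembly promoters, and in 21% of all. Only the exact letters TGACG were searched, at any position, so X2 sites in other letters were not counted. The X2 counts therefore give no order of the classes. The overlapping entries of Psmb9 and Tap1 hold the same Y box and the same X2 core, so the assembly counts include each of these sites for both genes. The interferon-response core was present in H2-T23, B2m and Erap1, whose ratios were -0.44, 0.17 and 0.11, and in 8.57% of all promoters. The NF-kB motif was present in H2-K1, H2-Q4, H2-M2, H2-Oa and H2-Aa, and in 5.72% of all. The interferon gamma-activated site was present in H2-M3, H2-DMb2 and Psmb8, and in 8.47% of all. None of the 5 motifs was found in the counted promoters of H2-M5, H2-Q10, H2-DMa, Mr1 and Psmb10, whose ratios were 0.92, 0.83, 0.15, -0.39 and -0.55. A further H2-DMa entry, at another start site and not counted, held a Y box at position -198 from that site. The second H2-K1 entry, also not counted, held the same motifs as the counted entry.

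The pathway lists outside the members gave 2 of 80 genes past 1.5-fold, both higher in the papain array, which is 2.5% against 9.72% of all named genes. The sets are unlike, since most pathway genes reached the floor. Of the 11691 named genes that did, 397 were higher and 507 lower by 1.5-fold. Of 13 measured class II endosomal processing genes, 3 had a ratio above 0 and 10 below, and the median was -0.11. The 12 that reached the floor had a median of -0.09, near the -0.10 of all named genes that did. Of these 12, 3 had a ratio above 0, as did 35.9% of the named genes at the floor. The exception in size was Ctss, cathepsin S, the protease that removes the invariant chain from class II molecules, at 9.79 after papain against 9.13 after PBS, a ratio of 0.65. The next largest were Ctsh with -0.26, Ifi30, the thiol reductase of endosomes, with -0.22, and Ctsz with -0.21.

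All 7 class II promoter factors reached the floor and 6 of them had ratios below 0, with a median of -0.26, against -0.10 for named genes at the floor, that stayed between -0.26 and -0.13 over the settings. Rfx5, the factor that binds the X box, read 7.14 after papain against 7.68 after PBS, a ratio of -0.54. The NF-Y subunits that bind the Y box had -0.51 for Nfyc, -0.42 for Nfya and 0.09 for Nfyb, and Rfxap had -0.26. None reached 1.5-fold.

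Interferon gamma pathway genes had a median ratio of 0.03 over 15 measured genes, and this median turned negative, to -0.01, with averaged or second brightest probe sets. Jak1, a kinase of the receptor as Jak2 is, read 10.28 after papain against 9.53 after PBS, a ratio of 0.75. Iigp1, an induced GTPase, had 0.32, Irf9 -0.18 and Jak2 0.17. Ifng itself was under background level in both arrays. Constitutive proteasome subunits, 13 measured, had ratios from -0.23 to 0.25, with Psma1 at 0.25, Psmb6 at -0.23, Psma2 at 0.19 and Psmb7 at 0.16. Further class I regulators and chaperones, 17 measured, had ratios from -0.23 to 0.27, with Pdia6 at 0.27, Hsp90b1 at 0.24, Psme1 at -0.23 and Ube2d3 at -0.19.

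Markers of macrophages and monocytes, cells that carry class II molecules, had a median about as high as the class II genes, while those of dendritic cells and B cells had medians near 0. Dendritic cell markers had a median ratio of 0.02, which changed sign under quantile normalization and loess. Of 9 measured, 2 reached the floor, Ccr7 at 0.52 and Cd209a, whose probe sets had ratios of -0.29 and 0.26. The summed signal of all 9 on the log2 scale was 10.14 after papain against 10.30 after PBS, and without Cd209a it turned to 8.63 after papain against 8.52 after PBS. All 11 macrophage and monocyte markers reached the floor, with a median ratio of 0.15 that stayed between 0.15 and 0.27 over the settings. Of these, 6 had ratios above 0, from 0.33 for Adgre1 to -0.52 for Cd14. The median and the sum went opposite ways, since their summed signal was 11.17 after papain against 11.32 after PBS. None of the 6 B cell markers measured reached the floor, and their summed signal was 7.95 after papain against 7.94 after PBS. The part of these cells in the class II ratios was not tested.

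**Figure D4:**
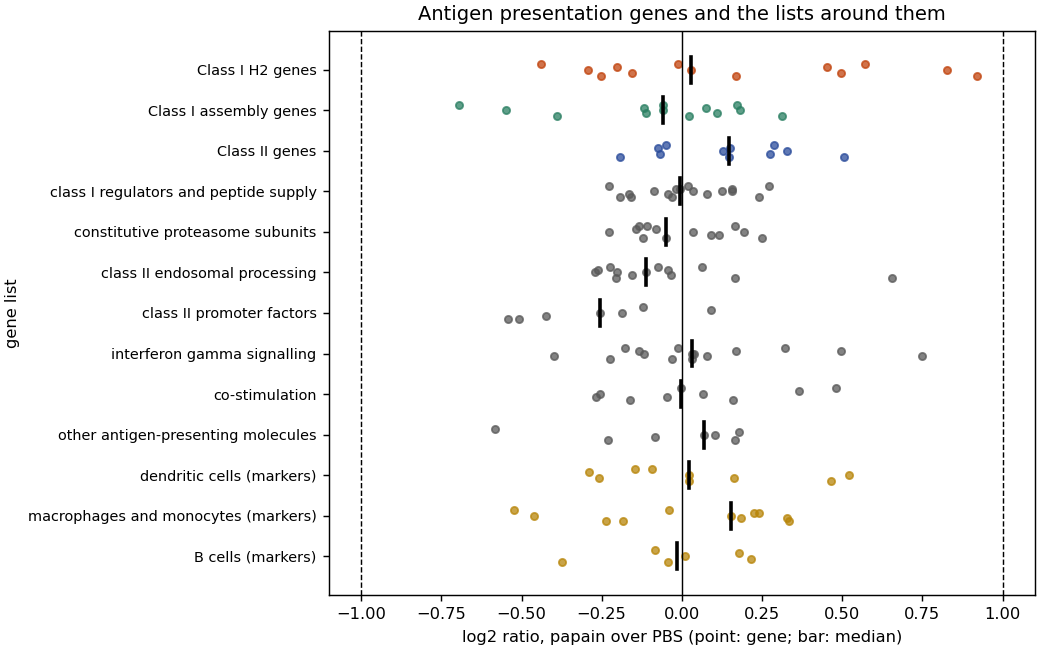
Log2 ratio of papain over PBS (x axis) of each gene (points) in the member groups, the surrounding pathway lists and the markers of class II-bearing cells (y axis), with the median of each list as a bar. Class II genes have a median of 0.15, class II promoter factors -0.26, and no point reaches the dashed 2-fold lines.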

How the data were processed

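RNA of nasal mucosa was measured on 2 arrays, 1 for papain and 1 for PBS. The deposited values are log2 signals per probe set, judging by their range. The submitters' processing notes name Transcriptome Analysis Console 4.0. How the authors corrected background, summarised and normalized is not given in the sources used. Of 41345 probe sets, 23521 carried 1 platform symbol, and only these were named. Members found only in probe sets with several symbols, 11 symbols such as H2-D1 and Cd74, have no value. RefSeq (GRCm38.p6) held all 39 members.

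Ratios are papain minus PBS, with no test at 1 array per group. Members and lists were chosen with earlier results of these data known. The list of other-tissue genes, and the placing of the pseudogene H2-Pb outside class I, were chosen after the members' values were seen. So were the sums without Cd209a, and the vomeronasal markers without H2-M1 and H2-M10.5. Named were all members, those reaching the floor with both values, and up to 4 genes of each list with the largest ratio among those reaching the floor, while smaller lists and markers are given by count and example. Alternatives were quantile normalization, centring, loess (span 0.3), averaged or second brightest probe sets, floors, and thresholds of 1.5-fold and 3-fold. Ratios were also computed on simulated data, where only the medians, not the counts, were checked against the values put in. Python 3.11.15, numpy 2.4.6, pandas 2.3.3, statsmodels 0.14.6 and matplotlib 3.10.9 were used.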

Additional observations from a re-analysis of the deposited data

Results flagged for a closer look

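No comparison drew on 3 probe sets that gave a signal, because each carries a member's symbol together with another gene's. The probe set listed under both Cd74, the invariant chain gene of class II molecules, and Mir5107 read 10.47 after papain against 10.01 after PBS, a log2 ratio of 0.47. Its signal belongs to no single gene here. The probe set of H2-Oa and BC051537 read 4.89 after papain against 4.42 after PBS, under background level in both, with a ratio of 0.47. The probe set of Tapbp and Zbtb22 read 6.71 after papain against 6.63 after PBS, a ratio of 0.0732.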

How the results depend on the processing

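No member passed 2-fold under any of the 5 settings run on single genes. Of 39 members, 32 kept their sign in all 5 settings. The exceptions were H2-Q5, H2-M3, Tapbp, Nlrc5, Tap1, Psmb8 and Ciita. Moves of over 1 probe set SD in at least 1 setting occurred in 3 members. Only H2-Q10, H2-Q4, H2-Q5 and Tapbp had more than 1 probe set. For every other gene with 1 probe set, averaging and the second brightest repeat the deposited ratio and could not change it. The class I median of 0.03 turned to -0.0128 with the second brightest probe set and to -0.11 with either floor. The assembly median of -0.06 turned to 0.00725 after loess. The class I minus class II difference of medians was -0.12 and became -0.26 with either floor. The difference of means was 0.03 and turned to -0.0210 with averaged probe sets, -0.0741 with the second brightest and -0.18 with either floor, so no order of the classes is given by means. At 1.5-fold the class I count of higher genes was 2 and the assembly count of lower genes 1, against 0 and 0 at 2-fold. Of all named genes, 1.83% were 2-fold higher and 0.73% lower. The higher share was 0.419% with the floor on the lower value, 5.38% at 1.5-fold and 0.924% at 3-fold. The lower share was 0.385% with the floor on the higher value, 0.153% with it on the lower value, 4.34% at 1.5-fold and 0.158% at 3-fold. The shifts in these shares of all named genes follow from counting other genes or using another threshold. The cause of the other shifts was not tested. No scaling moved the median of all named genes by over 0.1. Placing H2-Pb in either class or leaving out pseudogenes, both chosen after seeing the data, gave no sign change of a class median. No paired analysis was possible because each group is 1 array. Dim signals limit 16 members, which lay under the floor.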

Other observations

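Other molecules at the border of antigen presentation went both ways. Fcgrt, the neonatal Fc receptor, an MHC class I-like molecule that carries IgG across epithelia, read 8.55 after papain against 9.14 after PBS, a log2 ratio of -0.58, just short of 1.5-fold. It had 1 probe set and stayed between -0.58 and -0.50 over the 5 settings. Of the 7 measured genes of that list, 4 had ratios above 0, among them Procr with 0.18 and the iron-handling class I-like gene Hfe with 0.10, and Azgp1 had -0.08. Cd1d1, which presents lipids, had -0.23 from signals under the floor.

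Of 9 co-stimulation genes, 4 had ratios above 0 and 3 reached the floor. Cd274, which encodes the inhibitory ligand PD-L1, read 7.39 after papain against 7.03 after PBS, a ratio of 0.36, while Icosl had -0.27 and Icam1 -0.05. Cd40, the receptor through which T cells activate presenting cells, had 0.48 from signals under the floor, and Cd80 and Cd86 had 0.16 and 0.07.

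Among 10 pairs of genes whose products work together, Psmb9 and Psmb10 differed most in ratio, by 0.73, followed by Tap1 and Tap2 at 0.64, both past the SD of 0.46 for such a difference. The I-A chains H2-Aa and H2-Ab1 differed by 0.05, and H2-K1 had a ratio 0.14 lower than B2m. The pairs were chosen after the ratios had been seen.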
